A study of Mus musculus with 15 samples.

Results

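The oligoadenylate synthetase family was followed through 8 genes, Oas1a, Oas1b, Oas1c, Oas1g, Oas2, Oas3, Oasl1 and Oasl2, out of the 34432 genes in the expression tables of CT26 cells, a line from a mouse colon tumor. The genes were taken by symbol, each was present in both tables, and every treated group was compared with its own control libraries. All 8 had enough counts to be tested in both experiments. RNA-sequencing had been done on 5 groups of 3 biological replicates. In the knockdown experiment, shPrmt1 cells (genotype Prmt1 knockdown) were a stable line, infected with a lentivirus carrying a tet-inducible hairpin, selected with puromycin and given doxycycline (DOX) for 3 days, and shControl cells carried the genotype Ctrl knockdown. Whether shControl cells received DOX is not stated in the labels. In the inhibitor experiment, WT cells were kept for 48 hours with vehicle, with 6 µM MS023 or with 6 µM GSK3368715. Both compounds inhibit type I protein arginine methyltransferases, the enzyme class to which PRMT1 belongs.

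An oligoadenylate synthetase that binds double-stranded RNA joins ATP into short chains of adenosine with an unusual 2′-5′ bond, known as 2-5A. The chains serve as a second messenger of the antiviral response. Type I interferon induces the synthetase genes through the interferon-stimulated response element in their promoters, so the family is a standard readout of interferon signalling. Oas1a and Oas1g encode small synthetases, Oas2 and Oas3 encode proteins with repeated synthetase units, and Oasl1 and Oasl2 encode relatives with ubiquitin-like domains. Oasl1 does not make 2-5A and is known as a translational brake on Irf7, whereas Oasl2 is an active enzyme in the mouse.

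The members lie in a pair of clusters on chromosome 5 of mm10 (GENCODE M21). Oasl2 (114896936 to 114912234) and Oasl1 (114923240 to 114937915), both on the plus strand, span 41.0 kb together. The other 6 members lie in a 191.3 kb cluster of 10 genes, in the order Oas2 (120730333 to 120749853), Oas3 (120753098 to 120777661), Oas1c (120800194 to 120812514), Oas1b (120812635 to 120824163), Oas1g (120876142 to 120887613) and Oas1a (120896256 to 120907521). Oas1b is on the plus strand and the other 5 are on the minus strand. Oas1b is annotated as a polymorphic pseudogene, and the remaining members as protein-coding genes.

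To show how alike the start regions of these genes are, the stretch of 80 bases before the transcription start is given 5′ to 3′ for 4 members, read from RefSeq windows on GRCm38.p6. Capitals mark every base inside a match to GAAA followed by any 2 bases and GAAA again, the core of the interferon-stimulated response element, and matches overlap in the 16-base runs of Oas1a, Oas1g and Oas1b.
Oas1a (chr5:120907526-120907605, minus strand): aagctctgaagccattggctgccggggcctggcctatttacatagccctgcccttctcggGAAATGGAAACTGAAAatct
Oas1g (chr5:120887614-120887693, minus strand): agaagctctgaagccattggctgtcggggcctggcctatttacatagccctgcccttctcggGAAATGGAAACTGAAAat
Oas1b (chr5:120812555-120812634, plus strand): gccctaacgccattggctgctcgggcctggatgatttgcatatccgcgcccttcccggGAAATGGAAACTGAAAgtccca
Oas3 (chr5:120777660-120777739, minus strand): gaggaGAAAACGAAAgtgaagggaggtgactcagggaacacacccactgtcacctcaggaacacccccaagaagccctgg

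The run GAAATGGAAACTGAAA was shared by Oas1a, Oas1g and Oas1b and ended 5, 3 and 7 bases before the respective start. In the Oas3 stretch a single match, GAAAACGAAA, lay farther out, from 75 to 66 bases before the start. The stretches of Oas1a and Oas1g were identical at 93.9% of aligned positions, those of Oas1a and Oas1b at 76.8%, and those of Oas1a and Oas3 at 47.1%. The alignments could hold gaps and no value for unrelated stretches was taken, so 47.1% is not read as likeness. Windows from 250 bases before to 50 bases after the start were at hand for 6 of the 8 members, and this motif was found on either strand in 4 of them (Oas1a, Oas1g, Oas3 and Oas1c), against 3.44% of all 32851 windows. The starts of Oas1a, Oas1g and Oas3 were those of RefSeq and that of Oas1b was from GENCODE M21, so the distances are not strictly comparable. Oas1b had no window of its own. Its stretch was read from the opposite strand of the Oas1c window, since 120 bases separate the starts of these divergent genes and the match counted for Oas1c lies on the Oas1b side. The windows of Oasl1 and Oasl2 did not hold the motif, and that of Oas2 was not analysed here.

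Reads assigned to genes numbered 17284091 to 29233738 per library in the knockdown experiment and 40119305 to 93697833 in the inhibitor experiment. The knockdown was visible in the targeted gene, with 5601, 5717 and 5620.1 normalized counts of Prmt1 in shControl and 669, 761 and 683 in shPrmt1 libraries, whereas the Prmt1 transcript was not called as changed by either inhibitor (log2 fold change -0.07 for MS023 and -0.01 for GSK3368715). A normalized count is the estimated number of reads on a gene divided by a factor for the size of its library. Epithelial markers were sparse for a colon line, as Epcam had at most 3 reads in each group, Cdh1 too in 4 of the 5 groups, and Krt18 was the most abundant of the 8 markers. The 8 epithelial markers summed to 34.3 to 38.0 CPM (reads on a gene per 1000000 reads on all genes) in shControl, 25.8 to 32.2 in shPrmt1, 20.8 to 23.7 in Vehicle, 30.1 to 31.6 in MS023 and 23.8 to 27.0 in GSK3368715 libraries. The 10 leukocyte markers summed to 1.73 to 5.05 CPM over all 15 libraries, with Cd3e and Ncr1 at no more than 3 reads in every group. Cd68 was the most abundant of them in every group and made up most of the sum (mean 1.7 CPM in shControl and 3.8 in Vehicle).

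In the control groups, the members covered a wide range of levels. Per kilobase of exon, shControl cells held most Oasl1 (24.1 CPM per kb), followed by Oas1a (15.2), Oasl2 (12.9), Oas3 (8.63), Oas1g (7.93), Oas2 (3.01), Oas1b (2.32) and Oas1c (0.608). The libraries of neighbours in this order did not overlap, except for Oas3 and Oas1g, whose lowest and highest values were 8.36 and 8.38. In Vehicle cells Oasl2 came first at 123.9 CPM per kb, then Oasl1 (71.6), Oas1a (69.1), Oas3 (47.0), Oas1g (40.7), Oas2 (19.96), Oas1b (14.8) and Oas1c (2.52). The 3 libraries overlapped between Oasl1 and Oas1a, between Oas3 and Oas1g, and between Oas2 and Oas1b. Overlap across libraries does not give the order of genes within a library, which was not compared in either control group.

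The 2 control groups also stood apart in level. Oasl2 had 41.6 ± 2.01 CPM (SD, n = 3) in shControl and 399.5 ± 92.4 in Vehicle cells, 9.59-fold more. Oasl1 differed least, with 53.2 ± 2.53 and 158 ± 21.2 CPM (2.97-fold), and the other 6 members were between 4.14-fold and 6.64-fold higher in Vehicle cells. These are levels from experiments that were normalized separately, in cells that differ in genotype and handling, and they were not tested.

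**Figure D1:**
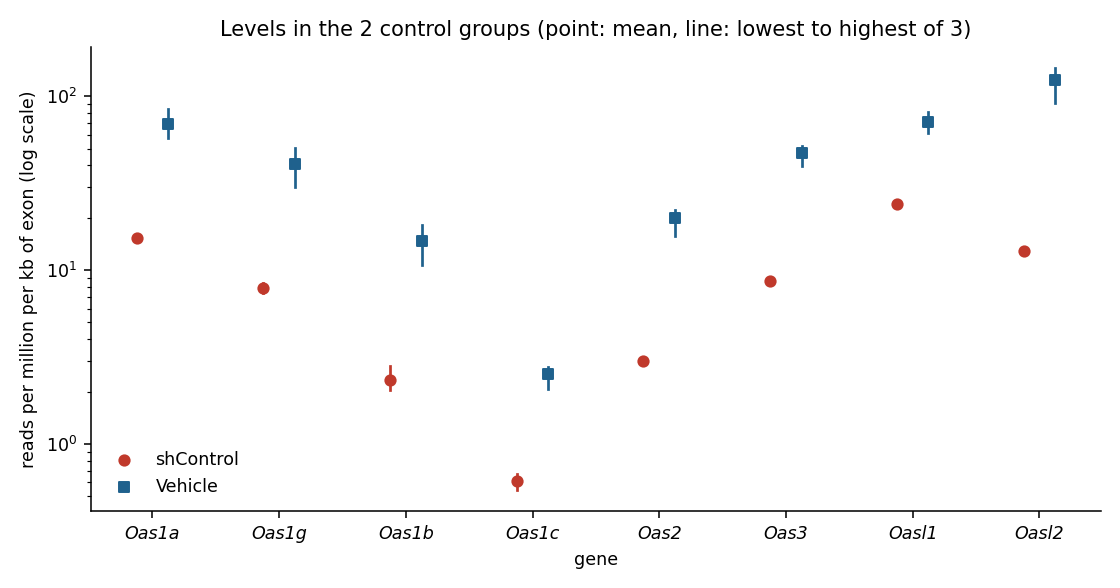
Level of each synthetase gene in the control groups, in CPM per kilobase of exon on a log axis; points are means of 3 libraries and lines run from the lowest to the highest library. Every gene was higher in Vehicle than in shControl cells, from 2.97-fold for Oasl1 to 9.59-fold for Oasl2, and the rank of Oasl2 moved from 3 to 1.

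To ask which synthetases respond when PRMT1 is lost, shPrmt1 cells were compared with shControl cells. The family rose nearly as a whole: 7 of the 8 members were called higher and none lower by limma (adjusted p under 0.05 over 11485 genes), where 7.50% of all genes tested were called higher and 7.17% lower. With libraries rescaled to equal totals, 1082 genes were called higher and 666 lower in place of 861 and 823, and the same count of 7 members was called higher. Oas2 changed most, 4.47-fold, followed by Oasl2 at 2.79-fold, Oas1a at 1.95-fold and Oas1b at 1.77-fold. The median log2 fold change of the 8 members was 0.76, against -0.0036 for all genes tested. In each of the 8 genes the lowest shPrmt1 library exceeded the highest shControl library, which held in this direction for 19.2% of all genes. All RNA came from bulk cultures, in which a change in the share of expressing cells and a change in RNA per cell cannot be told apart.

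Among the enzymes of the Oas cluster, Oas2 had 269, 258 and 254 normalized counts in shControl libraries and 1185, 1156 and 1159 in shPrmt1 libraries. The 3 knockdown libraries lay close together and far above every control. The log2 fold change was 2.16 (SE 0.07; limma with Benjamini-Hochberg correction, adjusted p = 5.2e-06), and Oas2 ranked 38 among the 11485 genes by size of increase. Oas3, its neighbour in the cluster and the largest synthetase, moved less, from 920.0, 863 and 901 to 1296, 1195 and 1468 normalized counts. Its shPrmt1 values spread more widely but stayed above the controls, with a log2 fold change of 0.56 (SE 0.09, limma adjusted p = 0.0052).

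Oas1a, a small active synthetase, had 617, 601 and 601 normalized counts in shControl and 1199, 1129.7 and 1229 in shPrmt1 libraries, a log2 fold change of 0.97 (SE 0.07, limma adjusted p = 1.4e-04). Its near copy Oas1g went from 339, 306 and 349 to 521, 513 and 542 normalized counts, a log2 fold change of 0.66 (SE 0.09, limma adjusted p = 0.0023). In both genes the groups were well apart. The transcripts of Oas1a and Oas1g are 97.6% identical over 1861 aligned bases, so reads may have been split between this pair when they were counted, and their summed counts gave a log2 fold change of 0.87 (limma adjusted p = 1.8e-04).

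The other Oas1 genes were scarcer. Oas1b, annotated as a polymorphic pseudogene, had 110.1, 79.2 and 81.8 normalized counts in shControl and 175, 136 and 169 in shPrmt1 libraries, a log2 fold change of 0.82 (SE 0.17, limma adjusted p = 0.017). Values of the shPrmt1 libraries were higher throughout, but the call was sensitive to leaving a library out, which also leaves fewer replicates. It was lost without shControl 2 (0.74, limma adjusted p = 0.063), shControl 3 (0.76, 0.070), shPrmt1 1 (0.76, 0.051) or shPrmt1 3 (0.78, 0.054). Oas1c, at 34.3, 27.4 and 31.0 normalized counts in shControl and 36.6, 36.4 and 61.2 in shPrmt1 libraries, did not pass the test (log2 fold change 0.48, 95% interval -0.10 to 1.07, and 0.24 without shPrmt1 3). One shPrmt1 library was high, and the other pair lay just above the controls. Part of the Oas1c transcript (214 bases, 51.4% of the shorter transcript) is 96.3% identical to Oas1d and Oas1e, and 227 bases of its exons overlap an antisense transcript, Gm43069, that is not in the tables; whether the counting used strand is not given in the sources used here.

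Both relatives with ubiquitin-like domains were higher after knockdown. Oasl2 had 894, 832 and 918 normalized counts in shControl and 2371, 2635 and 2365 in shPrmt1 libraries, with no overlap (log2 fold change 1.48, SE 0.07, limma adjusted p = 3.0e-05). Oasl1 had 1115, 1078 and 1182 against 1863, 1630.3 and 1994 normalized counts, again with the groups apart (log2 fold change 0.70, SE 0.09, limma adjusted p = 0.0018). Oasl1 shares 38 exonic bases with the antisense transcript Gm13822. On the CPM scale, the 8 members summed to 192 to 205 in shControl and 402 to 436 in shPrmt1 libraries.

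**Figure D2:**
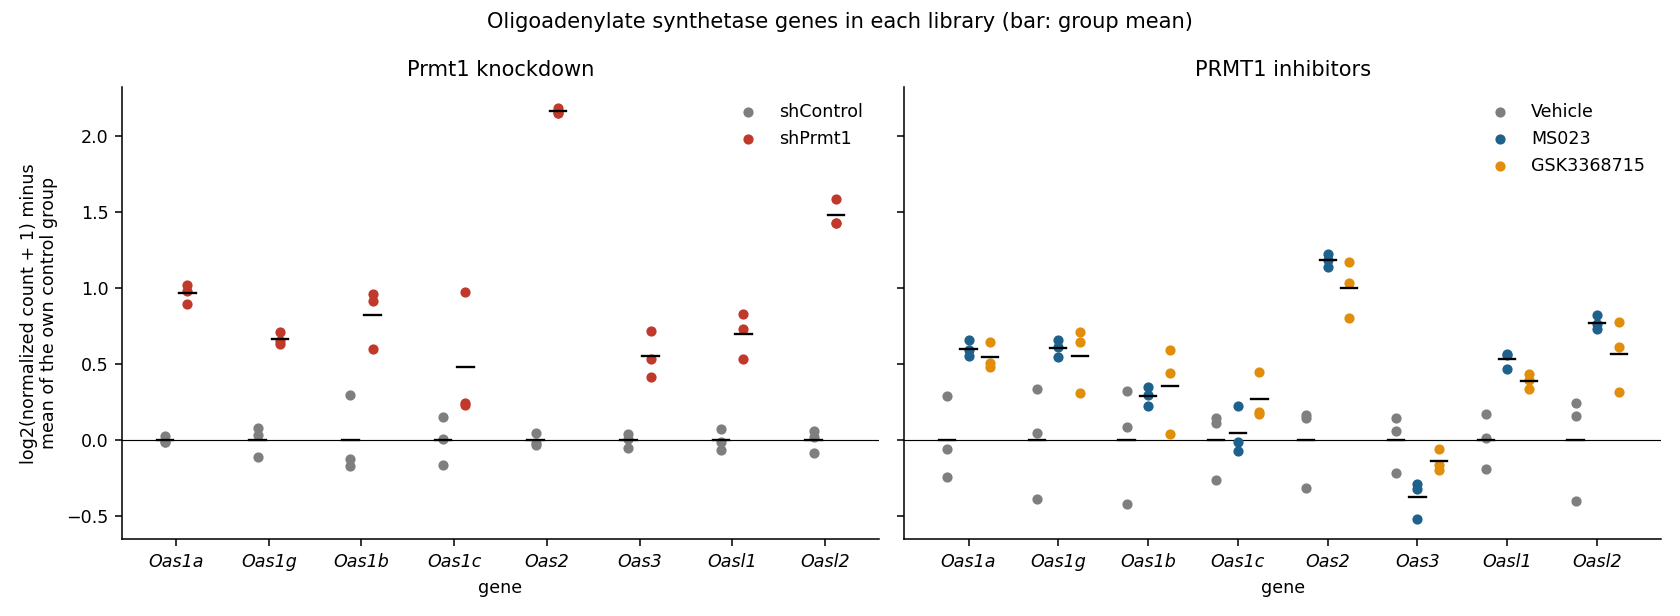
Log2(normalized count + 1) of each synthetase gene in each library, minus the mean of the own control group; points are libraries, bars are group means, and the panels show the knockdown and the inhibitor experiment. Every shPrmt1 point lies above the shControl points of its gene, the group means of Oas2 and Oasl2 stand highest in both panels, and Oas3 lies below 0 in all MS023 and GSK3368715 libraries.

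Catalytic inhibition was examined with MS023 first. Of the 8 members, 5 were called higher (Oas1a, Oas1g, Oas2, Oasl1 and Oasl2) and 1 lower (Oas3), where 13.7% of the 13014 genes tested were called higher and 14.1% lower. At equal totals 2200 genes were called higher and 1509 lower in place of 1784 and 1841, and again 5 members higher and 1 lower. The median log2 fold change of the members was 0.57, against 0.0028 for all genes. The same 6 genes were those whose MS023 and Vehicle libraries did not overlap, which held for 22.4% of all genes in the upward and 22.1% in the downward direction. One control stood apart, as Vehicle 2 was the lowest Vehicle library for all 8 members, with 53486 normalized counts over the 8 genes together against 76843 and 69993 in the other Vehicle libraries. It was also the deepest of the 3, and whether this has a part in the results was not tested beyond leaving the library out, which kept 5 members called higher and 1 lower under MS023.

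Oas2 again moved most, from 5372, 3898 and 5437 normalized counts in Vehicle to 10682, 11015 and 11319.8 in MS023 libraries. All MS023 values were close to each other and far above the controls (2.27-fold, log2 fold change 1.18, SE 0.12, limma adjusted p = 1.4e-04). Oasl2 had 27802, 17825 and 26242 normalized counts in Vehicle and 39094, 41543 and 39878 in MS023 libraries, a log2 fold change of 0.77 (SE 0.15, limma adjusted p = 0.0045). Oasl1 had 10643, 8255 and 9533 against 13886, 13021 and 13973 normalized counts, a log2 fold change of 0.53 (SE 0.08, limma adjusted p = 0.0010). For both genes each treated library exceeded each Vehicle library.

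Oas1a rose from 9453, 6547 and 7436 normalized counts to 11622, 11349.9 and 12187 with MS023 (log2 fold change 0.60, SE 0.11, limma adjusted p = 0.0027). Oas1g had 5965, 3609 and 4890.3 against 7212, 6913 and 7445 normalized counts (log2 fold change 0.61, SE 0.16, limma adjusted p = 0.016). The treated libraries of both were above all controls, and the summed counts of the 2 copies gave 0.60 (limma adjusted p = 0.0048). The call of Oas1g was lost without MS023 3 (0.58, limma adjusted p = 0.054). Oas1b had 2003, 1196 and 1700.4 normalized counts in Vehicle and 2031, 1865 and 1967 in MS023 libraries, and did not pass the test (log2 fold change 0.29, 95% interval -0.10 to 0.68). Neither did Oas1c (0.05, -0.25 to 0.34), at 389, 300.4 and 398 against 342, 357 and 419 normalized counts. In both genes the treated libraries overlapped the controls. Leaving out Vehicle 2 took Oas1b with MS023 to 0.08 and leaving out Vehicle 1 to 0.45, neither of them called.

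Oas3 fell with MS023. It had 15215, 11855 and 14356 normalized counts in Vehicle and 9608, 11263 and 11004 in MS023 libraries. Every MS023 library was below every Vehicle library, the nearest being Vehicle 2. The log2 fold change was -0.37 (SE 0.09, limma adjusted p = 0.013), and without Vehicle 3 it no longer passed (-0.34, limma adjusted p = 0.051), nor did it without MS023 1 (-0.30, 0.055).

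With GSK3368715, the other inhibitor, 5 members were called higher and none lower, where 5.16% of the 13014 genes were called higher and 4.47% lower. The median log2 fold change of the 8 genes was 0.47, against 0.0004 for all genes. The 5 genes called were those called higher with MS023, and the 2 comparisons share their Vehicle libraries. In 5 members the GSK3368715 libraries were all above the Vehicle libraries, against 13.7% of all genes, and these were not the 5 called, since Oas1c was among them and Oas1g was not.

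Oas2 had 10916, 9897 and 8444 normalized counts with GSK3368715, 2.00 times the Vehicle level (log2 fold change 1.00, SE 0.12, limma adjusted p = 0.0014). All 3 libraries were above the Vehicle values, the third by the least. Oas1a, at 10993, 12093 and 10794 normalized counts, had a log2 fold change of 0.55 (SE 0.11, limma adjusted p = 0.013), which did not pass without Vehicle 3 (0.52, limma adjusted p = 0.052). Oasl1, at 11925, 12399 and 12727 normalized counts, had a log2 fold change of 0.39 (SE 0.08, limma adjusted p = 0.015). In Oas1a and Oasl1 the treated libraries were tightly grouped above the controls.

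The 2 remaining calls were marginal. Oasl2 had 40302, 35994 and 29245 normalized counts (log2 fold change 0.57, SE 0.15, limma adjusted p = 0.044) and Oas1g 7728, 7375 and 5849 (0.55, SE 0.16, limma adjusted p = 0.04996). In both genes GSK3368715 3, the shallowest library of the experiment, was the lowest treated library, and for Oas1g it lay below Vehicle 1. Both calls were lost without Vehicle 2 (Oasl2 0.37, limma adjusted p = 0.058, and Oas1g 0.36, 0.079), Vehicle 3 (0.65, 0.066, and 0.58, 0.11), GSK3368715 1 (0.46, 0.13, and 0.48, 0.14) or GSK3368715 2 (0.55, 0.11, and 0.51, 0.13). They were also lost without MS023 1, 2 or 3, which left the fold changes as they were and gave an adjusted p of 0.066 to 0.067 for Oasl2 and 0.074 to 0.075 for Oas1g in limma. Oas1a and Oas1g summed gave a log2 fold change of 0.55 (limma adjusted p = 0.020). Oas1b (2408, 2168 and 1646 normalized counts, log2 fold change 0.36, 95% interval -0.03 to 0.75), Oas1c (409, 492 and 406, 0.27, -0.03 to 0.57) and Oas3 (12287, 13218 and 12010.2, -0.14, -0.34 to 0.07) did not pass the test. Without Vehicle 1 and without Vehicle 2 these values were 0.52 and 0.15 for Oas1b, 0.33 and 0.14 for Oas1c and -0.06 and -0.24 for Oas3, none of them called. Leaving out GSK3368715 2 gave 0.18 for Oas1c, and leaving out GSK3368715 1 gave 0.24 for Oas1b.

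**Figure D3:**
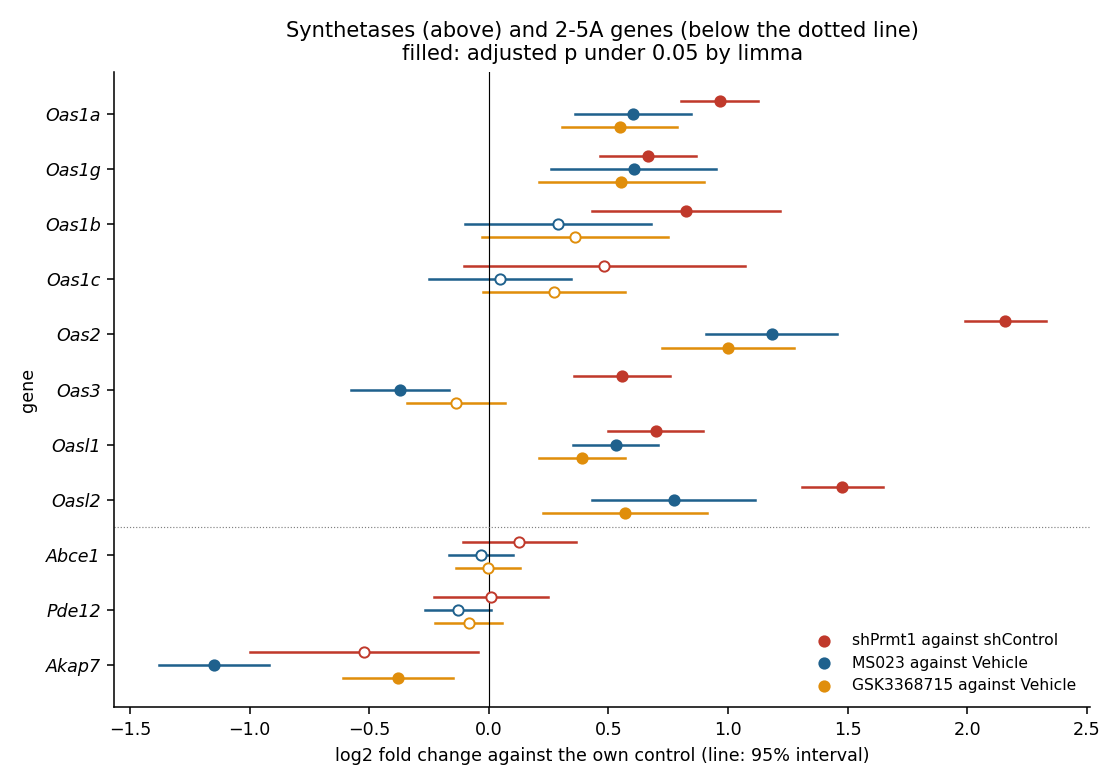
Log2 fold change against the own control for the synthetase genes and, below the dotted line, for Abce1, Pde12 and Akap7; lines are 95% intervals and filled points passed an adjusted p of 0.05 by limma. Oas2 has the highest value in each comparison (2.16, 1.18 and 1.00), Oas3 has values of 0.56, -0.37 and -0.14, and Akap7 lies below 0 in all 3.

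MS023 and GSK3368715 were given at the same dose and time and could be compared directly. None of the 8 members was called as different by limma, where 0.515% of genes were (41 higher and 26 lower, or 22 and 25 at equal totals). The libraries of the 2 groups did not overlap in 2 members, Oas3 and Oasl1, against 21.4% of all genes. On the recovered reads, edgeR and DESeq2 called none either. The 95% interval of the difference (GSK3368715 minus MS023, log2) was -0.46 to 0.09 for Oas2, -0.55 to 0.14 for Oasl2, -0.32 to 0.04 for Oasl1, -0.30 to 0.19 for Oas1a, -0.40 to 0.29 for Oas1g, -0.32 to 0.46 for Oas1b and -0.07 to 0.52 for Oas1c. For Oas3 the interval was 0.03 to 0.44 and each GSK3368715 library was above each MS023 library, with an adjusted p of 0.31 over all genes in limma.

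The balance between Oas2 and Oas3, adjacent genes of the cluster, was looked at after their values were seen. Within a library this ratio does not depend on how libraries are scaled. The ratio of Oas2 to Oas3 normalized counts was 0.293, 0.299 and 0.282 in shControl libraries and 0.915, 0.968 and 0.789 in shPrmt1 libraries. It was 0.353, 0.329 and 0.379 in Vehicle, 1.11, 0.978 and 1.03 in MS023, and 0.888, 0.749 and 0.703 in GSK3368715 libraries. Each treated library was above every control library of either experiment, although Oas3 was higher than control in shPrmt1 and lower in MS023 cells. Oas3 went from 21.2% ± 0.292 of the summed member counts in shControl to 15.2% ± 1.09 in shPrmt1, and from 20.8% ± 1.21 in Vehicle to 11.0% ± 0.728 in MS023 and 13.9% ± 1.09 in GSK3368715 libraries (SD, n = 3 each). The ratio was chosen with its values known and was not tested.

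**Figure D4:**
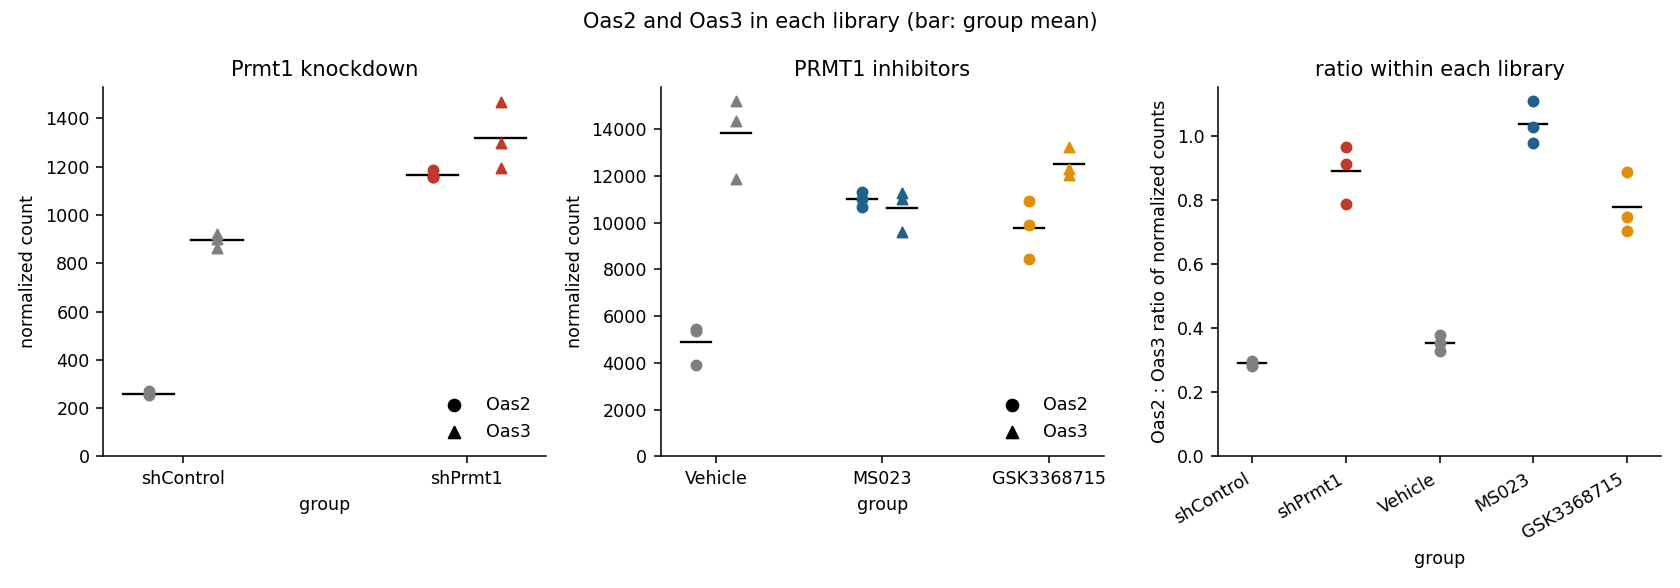
Normalized counts of Oas2 (circles) and Oas3 (triangles) in each library of the knockdown (left) and inhibitor (middle) experiment, and the ratio of the 2 genes within each library (right); bars are means of 3 libraries. The ratio lies between 0.282 and 0.379 in the 6 control libraries and between 0.703 and 1.11 in the 9 treated libraries.

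The same measures were read for 3 genes listed with the turnover of 2-5A. Abce1, which encodes an ATPase that recycles ribosomes, and Pde12, a phosphodiesterase that degrades 2-5A, were not called in any comparison, with log2 fold changes from -0.13 to 0.13. Akap7, which encodes an anchoring protein with a 2-5A phosphodiesterase domain, fell. It had 896, 787 and 824 normalized counts in Vehicle, 356, 384 and 387 in MS023 and 609, 749 and 579 in GSK3368715 libraries. The MS023 libraries were the lowest and those with GSK3368715 lay between. The log2 fold change was -1.15 for MS023 (SE 0.10, limma adjusted p = 6.9e-05) and -0.38 for GSK3368715 (SE 0.10, adjusted p = 0.045). The latter call was lost under 13 of 20 alternatives. Among them were leaving out Vehicle 1 (-0.33, limma adjusted p = 0.11), Vehicle 3 (-0.39, 0.11), GSK3368715 1 (-0.34, 0.13), GSK3368715 3 (-0.30, 0.14) or MS023 1, 2 or 3 (adjusted p from 0.063 to 0.069). In limma it was also lost without the low-count filter (adjusted p = 0.068), without the variance trend (0.065) or at equal totals (0.056). The replicate block gave 0.081, the 2 groups alone 0.0997 and edgeR 0.051. After knockdown Akap7 had 89.2, 165 and 138 normalized counts against 190.2, 180.0 and 177 in shControl libraries and did not pass (-0.52, 95% interval -1.001 to -0.045), except without shPrmt1 2 (-0.71, limma adjusted p = 0.025).

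The 4 Oas1 genes outside the 8 members, Oas1d, Oas1e, Oas1f and Oas1h, were at or near the detection limit. Oas1h had no read in any library, and Oas1f at most 2 in a library. Only Oas1e was tested, in the inhibitor table, with 2, 8 and 2 reads in Vehicle, 38, 19 and 16 in MS023 and 12, 12 and 7 in GSK3368715 libraries. MS023 libraries had the most reads throughout. Its log2 fold change was 2.21 for MS023 (SE 0.43, limma adjusted p = 0.0040) and 1.39 for GSK3368715 (SE 0.43, adjusted p = 0.069), on few reads and with the stretch shared with Oas1c.

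Other receptors and effectors of double-stranded RNA were counted in a list of 8 genes. After knockdown 6 were called higher and 1 lower by limma, with MS023 4 and 1, and with GSK3368715 also 4 and 1. Among all genes tested, 7.50%, 13.7% and 5.16% were called higher and 7.17%, 14.1% and 4.47% lower in these comparisons. The median log2 fold changes of the list were 0.68, 0.18 and 0.27, against -0.0036, 0.0028 and 0.0004 for all genes. Ifih1 (MDA5, a cytoplasmic sensor of long double-stranded RNA), Tlr3 (an endosomal sensor), Ddx58 (RIG-I) and Eif2ak2 (PKR, which shuts off translation) were called higher in all 3 comparisons. Ifih1 had log2 fold changes of 1.00, 0.35 and 0.47 for shPrmt1, MS023 and GSK3368715, and Tlr3 0.84, 0.53 and 0.64. The Ddx58 call with MS023 (0.17, limma adjusted p = 0.041) was lost under 10 of 20 alternatives, among them leaving out Vehicle 2 (0.12, 0.11), GSK3368715 1 or 3 (0.17, 0.056 and 0.055) or MS023 1, 2 or 3 (0.18, 0.18 and 0.15, with adjusted p from 0.074 to 0.13). The Eif2ak2 call was lost with MS023 without MS023 1 or 3 (0.21 and 0.20, limma adjusted p = 0.051 and 0.061). With GSK3368715 it was lost without Vehicle 3 (0.27, limma adjusted p = 0.05003), GSK3368715 1 (0.21, 0.065) or GSK3368715 3 (0.24, 0.062), and with only the 2 groups compared (0.062). Adar, the RNA-editing enzyme, and Dhx58 (LGP2) were called higher in the knockdown, at 0.44 and 0.79. With the inhibitors they did not pass in limma, but Adar passed with MS023 under 5 of 20 alternatives, among them DESeq2 (adjusted p = 0.042), equal totals (0.034) and leaving out Vehicle 1 (0.20, 0.049) or GSK3368715 1 (0.17, 0.041). With GSK3368715, Adar passed by DESeq2 (adjusted p = 0.019) and Dhx58 without Vehicle 1 (0.53, limma adjusted p = 0.016). Mavs, the adaptor of RIG-I and MDA5, was the gene called lower each time, at -0.35, -0.28 and -0.27. Its knockdown call was lost without shControl 1 (-0.35, limma adjusted p = 0.068), shControl 3 (-0.33, 0.075) or shPrmt1 3 (-0.34, 0.0503), and that with GSK3368715 without Vehicle 3 (-0.26, 0.060).

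In the interferon pathway that induces the members, a list of 10 genes, 4 of 9 tested were called higher after knockdown (Stat2, Irf9, Irf7 and Jak1), 4 of 10 with MS023 (Stat2, Irf1, Irf7 and Tyk2) and 3 of 10 with GSK3368715 (Stat2, Irf1 and Irf7), and none lower. The shares of all genes called higher were 7.50%, 13.7% and 5.16%. The Jak1 call (0.30, limma adjusted p = 0.038) was lost without shControl 1 (0.36, 0.063), shControl 2 (0.31, 0.10) or shControl 3 (0.24, 0.15). It was also lost without shPrmt1 3 (0.29, 0.10) or without the variance trend (0.082). With the inhibitors Jak1 passed only without Vehicle 2 (MS023 0.17, limma adjusted p = 0.043, and GSK3368715 0.22, 0.030). Irf7, an interferon-induced transcription factor, had 287, 230.4 and 233 normalized counts in shControl and 869.9, 895 and 851 in shPrmt1 libraries. It had 9198, 5699 and 7291 in Vehicle, 13309, 13774 and 14503 in MS023 and 10902, 13319.8 and 10727 in GSK3368715 libraries. The treated libraries were above the controls in both experiments, with log2 fold changes of 1.80, 0.93 and 0.68 for shPrmt1, MS023 and GSK3368715. The GSK3368715 call was lost without Vehicle 3 (0.68, limma adjusted p = 0.055) or GSK3368715 2 (0.58, 0.057), without the trend (0.052) and with only the 2 groups compared (0.053). Stat2 changed by 0.60, 0.66 and 0.59. Irf9, which encodes a DNA-binding partner of STAT2, passed in the knockdown (0.64, limma adjusted p = 9.6e-04) but not with MS023 (0.27, 0.061) or GSK3368715 (0.26, 0.11). Without Vehicle 1, Irf9 passed with MS023 (0.37, limma adjusted p = 0.0079) and with GSK3368715 (0.37, 0.019), and with MS023 it also passed by DESeq2 (0.039) and at equal totals (0.044). Without Vehicle 2 it was 0.16 with either inhibitor. The receptor genes Ifnar1 and Ifnar2 were not called. Ifnb1, the gene of interferon beta, had at most 1 read in a knockdown-experiment library and was not tested there. It had 9, 10 and 7 reads in Vehicle, 24, 14 and 13 in MS023 and 34, 14 and 8 in GSK3368715 libraries. These are reads from libraries of unequal depth. In normalized counts every treated library was above every Vehicle library, the nearest pair being 11.897 (GSK3368715 3) and 10.999 (Vehicle 1). The log2 fold change was 0.59 with MS023 (limma adjusted p = 0.26) and 0.80 with GSK3368715 (0.19), neither called, on few reads. Cgas, which encodes a DNA sensor built on the same enzyme fold as the synthetases, was not called in any comparison (0.11, 0.02 and 0.17).

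**Figure D5:**
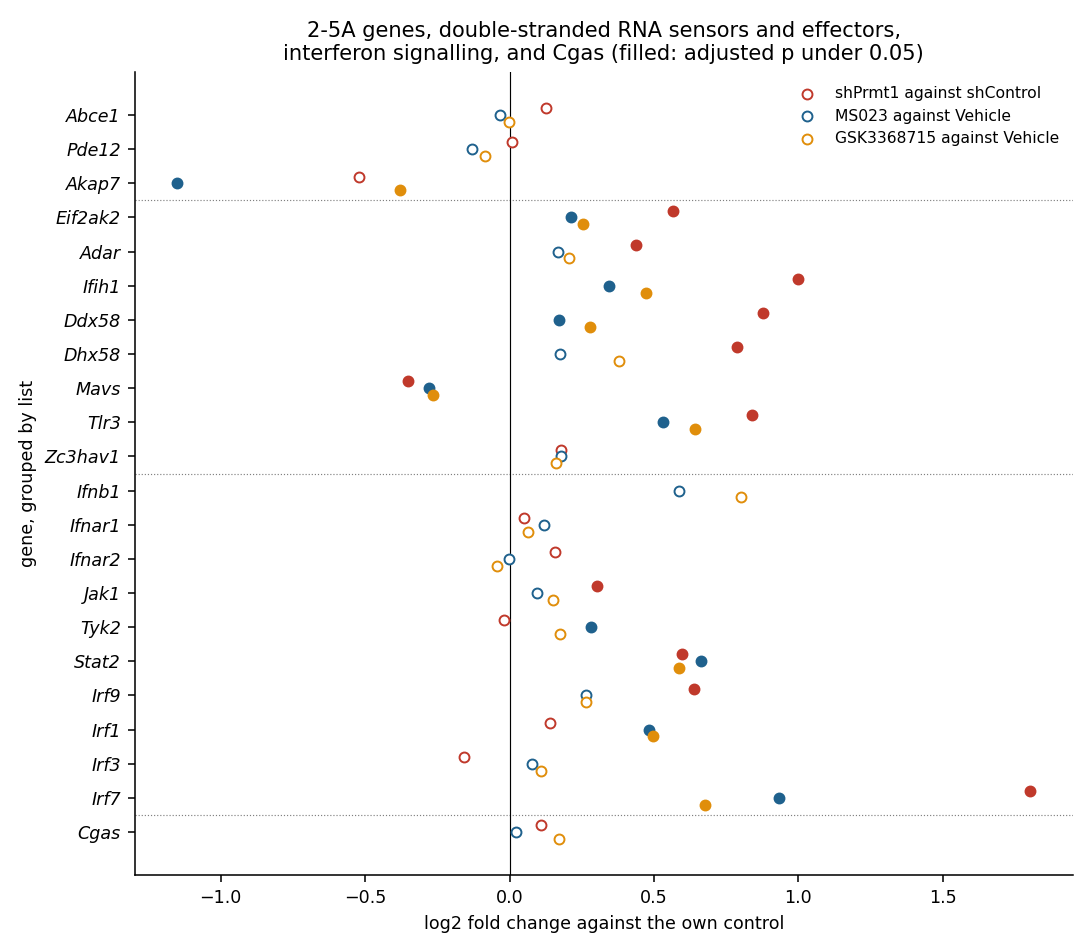
Log2 fold change against the own control for genes of the 2-5A system, sensors and effectors of double-stranded RNA, interferon signalling and Cgas, separated by dotted lines; filled points passed an adjusted p of 0.05 by limma, and a comparison in which a gene was not tested has no point. Irf7 has the highest value (1.80 in the knockdown), Mavs is filled below 0 in all 3 comparisons, and Cgas is open throughout.

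Among the genes beside the clusters, which were in the tables in all 8 cases, only 3 had enough counts to be tested. Ptpn11, beyond the Oas1 end of the cluster, was not called in any comparison, with log2 fold changes from -0.10 to 0.12, nor was 2210016L21Rik, beside Oasl1, at -0.04 to 0.11. Gm9936, on the Oasl2 side, was tested in the inhibitor table alone and was lower with MS023 (-2.29, limma adjusted p = 0.0059), at a mean of 22.3 normalized counts in Vehicle libraries.

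Oasl2 had the highest mean normalized count of the family over all 15 libraries, with both experiments pooled. In shControl libraries Oasl1 was higher (ratio of Oasl2 to Oasl1 from 0.772 to 0.801). The pattern of Oasl2 over the 9 treated libraries was compared with that of 10167 genes. The measure was the root mean square difference of the log2 values, each taken from the mean of its own controls. The most alike were Samd9l (0.113), Trim12c (0.131), Atoh8 (0.151), Cmpk2 (0.160), Igtp (0.165) and Irgm1 (0.183). The libraries are shared by all genes, and no test was made. These 6 genes were picked as the closest, so a greater distance of other genes follows from the choice. By the same measure the members lay from 0.339 for Oas1a to 0.954 for Oas3. Placed among the 10167 genes, Oas1a would rank 48, Oas1g 122, Oas1b 141, Oasl1 147, Oas2 158, Oas1c 761 and Oas3 2879.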

How the data were processed

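Total RNA of CT26 cells was sequenced by the authors as paired-end reads, 3 libraries per group in 5 groups. The authors quantified the reads with Salmon (1.4.0 per the submitters' notes) on mm10 with default parameters and deposited, for each experiment separately, gene counts divided by DESeq2 size factors, which are a normalized signal and not raw reads. Every value was a whole multiple of the smallest value above 0 in its library (100% of values within 0.01). Dividing by it gave back whole counts per gene. These are Salmon estimates in whole numbers, called reads here, and depth is given as reads on genes. Recovered reads carry no molecular identifiers, and limits drawn from them cover counting error only. The 3 deposited tables of the authors' own comparisons hold fold changes and p-values and were not used.

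A gene was tested when 3 or more libraries of its table held 10 or more normalized counts, with limma 3.58.1 (R 4.3.3; lmFit and eBayes with a trend) on log2(normalized count + 1), two-sided, with Benjamini-Hochberg adjustment over all genes tested. This scale understates changes of scarce genes. The 6 knockdown libraries and the 9 inhibitor libraries were fitted separately, since the tables were normalized separately. The fits were tried beforehand on simulated counts. These had the same fixed spread for all genes, not taken from these libraries, so the trial does not show how the fits handle the real spread. Alternatives were other pseudocounts (0.5, 5) and filters (none, 50), equal upper quartiles or totals, no trend, a replicate block, fits limited to the 2 groups of a comparison, edgeR 4.0.16 and DESeq2 1.42.0 on the recovered reads, near-identical copies summed, and each library left out. The members and gene lists were chosen with earlier results of these data known. The genes named are the 8 members, the listed genes that passed in any comparison, Prmt1, neighbours of the clusters, near-identical copies (at least 95% over at least 30% of the shorter transcript, blastn 2.17.0) and the 6 genes most like Oasl2 among genes averaging 50 or more normalized counts in each table. The listed genes that did not pass are given by count, and those named among them were chosen after their values were seen. Of the 34432 gene identifiers, 34372 were found in GENCODE M21. Promoter windows are from RefSeq on GRCm38.p6. Protein sequences of the members are not analysed here, and some genes of the pathway are not reported here.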

Additional observations from a re-analysis of the deposited data

Results flagged for a closer look

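Akap7 differed between the inhibitors at the same dose and time: its log2 value was 0.77 higher with GSK3368715 than with MS023 (95% interval 0.54 to 1.00), with means of 645 ± 90.7 and 376 ± 16.8 normalized counts (SD, n = 3). The adjusted p of this difference was 0.017 in limma, and every GSK3368715 library was above every MS023 library. The call was lost without GSK3368715 1 (0.81, limma adjusted p = 0.057), MS023 1 (0.73, 0.11), MS023 2 (0.79, 0.077) or MS023 3 (0.79, 0.066), and also with the variance trend left out (0.053) or with the replicate block (0.073).

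Oas3 moved in opposite directions after knockdown and with MS023. All 3 shPrmt1 libraries were above the shControl mean (log2 fold change 0.56), while all 3 MS023 libraries (-0.37) and all 3 GSK3368715 libraries (-0.14, not called) were below the Vehicle mean. Vehicle 2 (11855 normalized counts) lay below the GSK3368715 libraries (12287, 13218 and 12010), so those groups overlapped. The MS023 call was lost without Vehicle 3 or MS023 1. The difference between the experiments was not tested, because their tables were normalized separately.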

How the results depend on the processing

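The numbers of members called in the knockdown (7) and with MS023 (6) did not move by more than 1.5 times under any alternative, and ran from 6 to 7 and from 5 to 6 with a library left out. With GSK3368715 the 5 calls became 3 without the filter on low counts, without the trend or with only the 2 groups compared, and 2 to 5 with a library left out: 2 without Vehicle 3, and 3 without Vehicle 2, GSK3368715 1 or 2, or any MS023 library. The calls lost were those of Oas1g and Oasl2, and without Vehicle 3 also that of Oas1a. Oas1g alone was lost with edgeR, with a pseudocount of 0.5 and at equal totals, which left 4 calls. The causes were not tested. No member was called between the inhibitors under any alternative run. Rescaling moved the median of all genes by less than 0.1 (log2).

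The replicate numbers are not stated to pair libraries, and deviations of same-numbered libraries correlated at 0.061 to 0.116 in the knockdown and at -0.102 to 0.113 in the other comparisons. In the knockdown each library correlated best with its own number, a hint from the data and not the design. With the replicate block, 3 members were called for GSK3368715, and 2671 genes in place of 1684 in the knockdown and 4 in place of 67 between the inhibitors. Over all genes, counts with a library left out were 652 to 2472 for the knockdown in place of 1684. They were 652, 883 and 723 without shControl 1, 2 and 3, 1072 without shPrmt1 3 and 2472 without shPrmt1 2. For MS023 they were 2409 to 3726 in place of 3625 (2409 without MS023 2). For GSK3368715 they were 586 to 1274 in place of 1254 (586 without Vehicle 3, 757 and 778 without GSK3368715 1 and 3). Between the inhibitors they were 2 to 114 (114 and 28 without Vehicle 2 and 3, and 2 to 11 without a treated library). With only the 2 groups compared, 597 genes were called for GSK3368715. Between the inhibitors 38 genes were called without the filter, 8 without the trend and 377 by DESeq2.

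Signs turned only where no call was made. With a library left out, the log2 fold change of Oas1c with MS023 ran from -0.083 to 0.12, below 0 without Vehicle 2 (-0.083) or MS023 3 (-0.041), and the difference between the inhibitors ran from -0.048 to 0.23 for Oas1b (-0.048 without GSK3368715 1) and from -0.13 to 0.071 for Oas1g (0.071 without GSK3368715 3). Prmt1 with GSK3368715 ran from -0.039 to 0.032 and Tyk2 in the knockdown from -0.12 to 0.075, and at equal totals they were 0.0025 and 0.014.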
